A study of Mus musculus with 8 samples.

Results

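Ms4a4a, Ms4a4b, Ms4a4c, Ms4a6b, Ms4a6c, Ms4a6d and Ms4a7 are 7 mouse genes of the MS4A family, which lie together on chromosome 19. They were selected by name, as the genes whose symbol in the sample tables equals 1 of these 7 symbols, and all 7 were found among the 16786 genes that had a value in every library other than TAM-KO replicate 1. Altogether 21051 genes were listed.

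MS4A proteins cross the cell membrane several times and sit beside other receptors, whose signals they can tune. The family includes CD20 of B cells (Ms4a1) and the beta chain of the high-affinity IgE receptor of mast cells (Ms4a2), while several other members, among them Ms4a4a, Ms4a6d and Ms4a7, are best known from macrophages and microglia. Mouse has several closely related Ms4a4 and Ms4a6 genes, so gene names do not map singly onto human ones.

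The samples were macrophages of B16 melanomas, a pigmented tumor line from C57BL/6 mice that was injected under the skin, and the study asked how the loss of collectin-11, a soluble pattern recognition protein, changes the RNA of these cells. TAM-WT are 4 wild-type mice and TAM-KO are 4 Colec11-/- mice, all of strain C57BL/6 and sampled on day 14 after injection, with 1 RNA library per mouse, numbered as the replicates of the labels. Per the methods, the mice were males aged 8 to 10 weeks, the knockout line had been backcrossed to C57BL/6, the controls were wild-type littermates, and the cells of the tumors were sorted as CD45+F4/80+. The knockout affects every cell of the mouse and not macrophages alone, and the injected tumor cells are not of the knockout line.

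The depth, as reads assigned to genes, was 16960268, 17122183, 16906782 and 17280267 for the TAM-WT libraries 1 to 4. For the TAM-KO libraries 2 to 4 it was 16225362, 16739028 and 16994308. TAM-KO replicate 1 has an incomplete table, so its total is unknown. For the 12572 genes present in all 8 tables, the totals ran from 10061535 to 10607640, with TAM-KO replicate 1 the highest. The libraries thus differ little in depth.

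The deleted gene was read first. Colec11 had 1, 4, 0 and 1 reads in TAM-WT libraries 1 to 4 and 1 read in each of the 4 TAM-KO libraries. With at most 4 reads in either group, these values cannot show which mice lack the gene, and the genotypes rest on the labels. The sort was read from macrophage markers. All 10 genes of a macrophage list had a value and were tested. C1qa, a chain of complement C1q, was the most abundant of them, at a mean of 1795 FPKM with an SD of 219.6 over 4 TAM-WT libraries and of 2100.2 FPKM with an SD of 54.3 over 3 TAM-KO libraries. FPKM counts fragments per length of transcript and per mapped reads of the library, so levels of different genes can be compared.

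The genes of most abundant RNA among the 7 members were Ms4a6d, Ms4a7 and Ms4a6c. Ranked by mean FPKM among 16786 genes, Ms4a6d was at 327 in TAM-WT and 300 in TAM-KO, Ms4a7 at 437 and 406, and Ms4a6c at 578 and 403. Ms4a4a was at 911 and 954 and Ms4a6b at 1202 and 868. These 5 genes thus were in the upper 7.16% of genes in both groups. Ms4a4c ranked 3997 in TAM-WT, in the upper 23.8% of genes, and 1604 in TAM-KO, in the upper 9.56%. Ms4a4b ranked 10284 in TAM-WT and 6992 in TAM-KO, below and above the middle of all genes. The ranks for TAM-KO use 3 libraries where TAM-KO replicate 1 has no value.

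**Figure D1:**
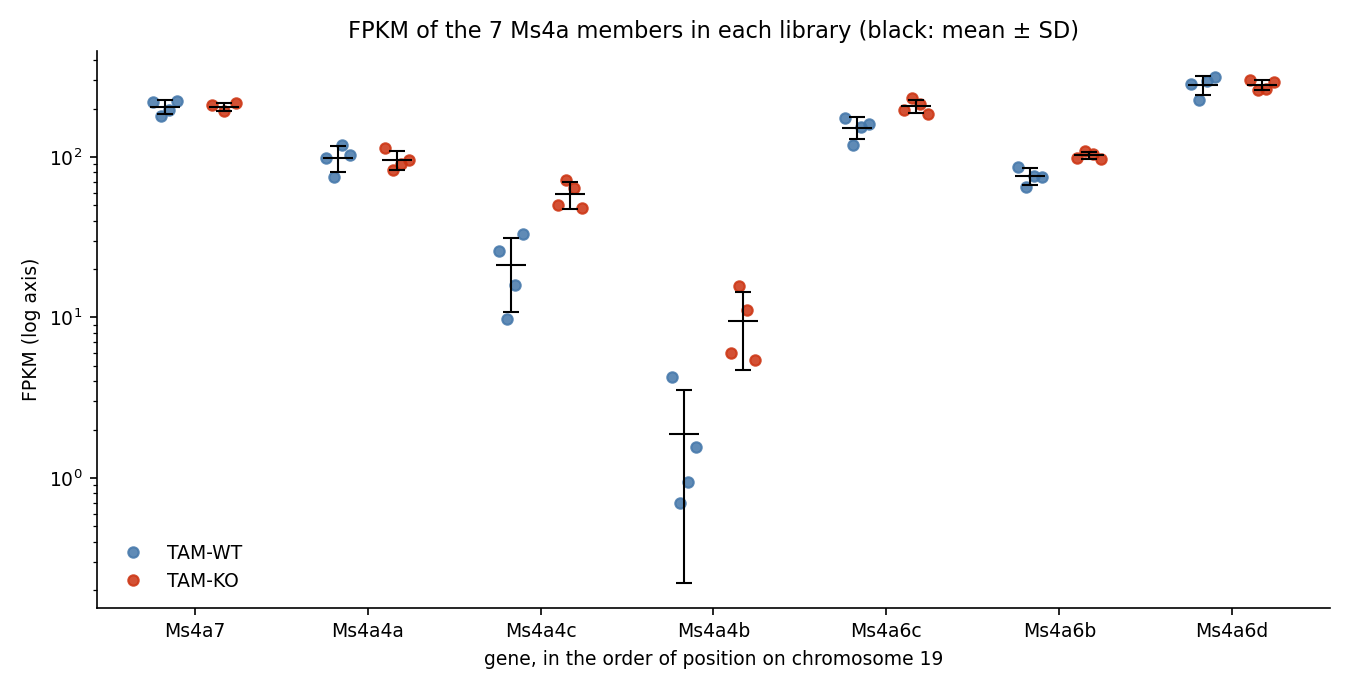
FPKM on a log axis of the 7 Ms4a genes in each library, in their order along chromosome 19, with blue points for TAM-WT, red points for TAM-KO, and black lines for the mean ± SD of each group. Points of the groups do not overlap for Ms4a4c, Ms4a4b, Ms4a6c and Ms4a6b, and they overlap for Ms4a7, Ms4a4a and Ms4a6d.

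Ms4a4c (NCBI gene 64380) encodes an MS4A protein close to that of Ms4a4b. Its level was 25.8, 9.82, 15.8 and 32.9 FPKM in TAM-WT libraries 1 to 4, and 49.9, 71.8, 64.2 and 48.3 FPKM in TAM-KO libraries 1 to 4. Every TAM-KO library lay above every TAM-WT library, and TAM-WT replicate 2 was the lowest of all. The means were 21.1 ± 10.3 FPKM (SD, n = 4) and 58.6 ± 11.4 FPKM (n = 4), from 250 to 836 reads per library in TAM-WT and from 1216 to 1731 in TAM-KO. Ms4a4c rose in TAM-KO by a log2 fold change of 1.36 (SE 0.31), a fold of 2.56, with an adjusted p of 0.032 in edgeR's quasi-likelihood test over all 12412 genes tested. Adjusted p here and elsewhere is by the Benjamini-Hochberg method, and the threshold was 0.05. In these bulk libraries, more cells of a type that carries this RNA and more RNA per cell cannot be told apart, and the same holds for lower values. With 1 library left out, the log2 fold change of Ms4a4c ran from 1.11 to 1.67, higher in TAM-KO in each of the 8 fits. The adjusted p of edgeR passed in 4 of these fits. It was 0.0549, 0.106 and 0.0946 without TAM-KO replicates 1, 2 and 3 in turn, and 0.0954 without TAM-WT replicate 3. It was lowest, at 0.00988, without TAM-WT replicate 2. Whether Ms4a4c passed thus depended on which mouse was left out, while its direction did not.

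Ms4a4b (NCBI gene 60361) encodes a protein known from T cells and NK cells, where it associates with the costimulatory receptor GITR. Its level was 4.28, 0.70, 0.94 and 1.56 FPKM in TAM-WT libraries 1 to 4, and 5.97, 15.6, 11.1 and 5.41 FPKM in TAM-KO libraries 1 to 4. The groups did not overlap, but TAM-WT replicate 1 stood above the other wild-type libraries and near TAM-KO replicates 4 and 1. These levels rest on few reads, namely 73, 12, 16 and 29 in TAM-WT and 104, 259, 188 and 93 in TAM-KO. Ms4a4b rose from 1.87 ± 1.65 FPKM (SD, n = 4) to 9.53 ± 4.80 FPKM (n = 4), a log2 fold change of 2.23 (SE 0.52) and a fold of 4.68, with an adjusted p of 0.0324 in edgeR. It was the largest fold among the 7 genes in edgeR. The ratio of Ms4a4b to Ms4a4c in FPKM was 0.166, 0.0713, 0.0594 and 0.0474 in TAM-WT and 0.12, 0.217, 0.173 and 0.112 in TAM-KO, so these neighbors did not hold a steady proportion. With 1 library left out, the log2 fold change ran from 1.89 to 2.97, and edgeR's adjusted p passed in 4 of 8 fits. It was 0.108 and 0.0959 without TAM-KO replicates 2 and 3 in turn, and 0.0939 and 0.0723 without TAM-WT replicates 3 and 4. Without TAM-WT replicate 1, the wild-type library with the highest level, it was 0.0133.

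Ms4a4a (NCBI gene 666907) encodes a macrophage surface protein that associates with the beta-glucan receptor dectin-1. Unlike its neighbors Ms4a4c and Ms4a4b, it showed no difference that passed. Its level was 97.8, 74.9, 119 and 102.3 FPKM in TAM-WT libraries 1 to 4 and 113, 82.6, 90.8 and 96.1 FPKM in TAM-KO libraries 1 to 4. The ranges overlapped almost entirely. The means were 98.6 ± 18.3 FPKM and 95.6 ± 12.8 FPKM (SD, n = 4 each), the log2 fold change was -0.15 (SE 0.16) and the adjusted p of edgeR was 0.556. A change of the size seen in Ms4a4c is thus many standard errors away from the value of Ms4a4a, although a small change cannot be told from none. As a result, the ratio of Ms4a4c to Ms4a4a in FPKM was 0.263, 0.131, 0.133 and 0.322 in TAM-WT and 0.442, 0.869, 0.707 and 0.502 in TAM-KO, with no overlap.

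None of the Ms4a6 genes passed, but the groups did not overlap for Ms4a6c and Ms4a6b. The level of Ms4a6c (NCBI gene 73656) was 176, 119, 154 and 161 FPKM in TAM-WT libraries 1 to 4 and 196, 232, 215 and 186 FPKM in TAM-KO libraries 1 to 4. Every TAM-KO library again lay above every TAM-WT library, by a small margin between TAM-WT replicate 1 and TAM-KO replicate 4. The means were 152.4 ± 24.0 FPKM and 207 ± 20.6 FPKM (SD, n = 4 each). The log2 fold change was 0.38 (SE 0.12), and edgeR's adjusted p of 0.0737 did not pass. It passed without TAM-WT replicate 2, at 0.0404, where the log2 fold change was 0.26, and in none of the other 7 fits that left out 1 library, in which the highest was 0.201.

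Ms4a6b (NCBI gene 69774) had 86.7, 64.8, 76.6 and 75.2 FPKM in TAM-WT libraries 1 to 4 and 98.8, 109, 104 and 97.3 FPKM in TAM-KO libraries 1 to 4. The groups did not overlap, and the spread within TAM-KO was small. The means were 75.8 ± 8.98 FPKM and 102.4 ± 5.52 FPKM (SD, n = 4 each). The log2 fold change was 0.33 (SE 0.09), and the adjusted p of edgeR, 0.0523, fell just short of the threshold. It passed at 0.0487 without TAM-WT replicate 1 and at 0.025 without TAM-WT replicate 2, and was at most 0.153 in the other fits that left out 1 library. The ratio of Ms4a6b to Ms4a6c was nearly the same in all 8 libraries, from 0.467 to 0.543, with means of 0.50 ± 0.0317 in TAM-WT and 0.495 ± 0.0228 in TAM-KO (SD, n = 4 each). Their proportion thus varied little among the libraries.

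Ms4a6d (NCBI gene 68774) encodes a macrophage protein described as a partner of VSIG4 in holding down the NLRP3 inflammasome. It had 285, 226, 299 and 313 FPKM in TAM-WT libraries 1 to 4 and 302, 261, 266 and 291 FPKM in TAM-KO libraries 1 to 4. The TAM-KO libraries all lay inside the range of TAM-WT. The means were 281 ± 38.4 FPKM and 280.1 ± 19.8 FPKM (SD, n = 4 each). In edgeR the log2 fold change was -0.11 (SE 0.13), far from passing (adjusted p 0.58). In limma on log2 FPKM it was 0.01, on the other side of 0, and in edgeR scaled to total reads -0.02. Relative to Ms4a6d, Ms4a6c had a ratio of 0.544 ± 0.0502 in TAM-WT and 0.746 ± 0.124 in TAM-KO, and Ms4a6b had a ratio of 0.272 ± 0.0293 in TAM-WT and 0.368 ± 0.0448 in TAM-KO.

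Ms4a7 (NCBI gene 109225) is widely used as a marker of tissue macrophages. It is missing from the table of TAM-KO replicate 1 and from that of the authors' comparison, so it was fitted on 7 libraries. It had 221, 179, 197 and 222 FPKM in TAM-WT libraries 1 to 4 and 209, 193 and 216 FPKM in TAM-KO libraries 2 to 4. The knockout libraries lay inside the wild-type range. The means were 205 ± 20.8 FPKM (SD, n = 4) and 206.1 ± 11.56 FPKM (n = 3). The log2 fold change of -0.09 (SE 0.11), with an adjusted p of 0.6 in edgeR, became 0.02 when edgeR was scaled to total reads and 0.01 in limma on log2 FPKM.

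Counted over the 7 genes, 2 passed an adjusted p of 0.05 in edgeR, both higher in TAM-KO and both with a fold of at least 2. Among all 12412 genes tested, 9.81% passed in either direction, 4.58% passed as higher in TAM-KO, 5.24% passed as lower in TAM-KO, and 2.53% passed with a fold of at least 2 in either direction. No member passed as lower in edgeR, where 0 were lower at an unadjusted p of 0.05 too, and DESeq2 and limma voom also called 0 lower. For 4 of the 7 genes the normalized counts of every TAM-KO library exceeded those of every TAM-WT library, against 9.10% of all genes tested. At an unadjusted p of 0.05 the same 4 genes were higher, as were 14.9% of all genes tested. The members' median log2 fold change was 0.33, with 4 of 7 above 0, beside a median of 0.00 over all genes tested, of which 6244 were above 0. Because the members were chosen with earlier results of these data known, these counts describe the genes and test nothing about the family.

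The count of members that passed moved with the libraries and the scaling. Without TAM-KO replicate 2, TAM-KO replicate 3 or TAM-WT replicate 3, edgeR called 0 of the 7. It called Ms4a4b alone without TAM-KO replicate 1 and Ms4a4c alone without TAM-WT replicate 4. It called both without TAM-KO replicate 4. Without TAM-WT replicate 1 it called 3, and 4 without TAM-WT replicate 2. Over all genes these fits called from 77 to 2755. With scaling to total reads in place of TMM, edgeR called Ms4a4c, Ms4a4b, Ms4a6c and Ms4a6b, 4 of 7, while 7.01% of all genes passed as higher. The balance of calls over all genes shifted too, from 568 higher and 650 lower with TMM to 870 higher and 480 lower with total reads. It was 878 higher and 406 lower in limma on log2(FPKM + 0.1), which moved the median log2 fold change of all genes by 0.10, and 916 higher and 408 lower in limma on log2(FPKM + 1).

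The order of the members' levels in FPKM differed a little between the groups. In TAM-WT it ran from Ms4a6d through Ms4a7, Ms4a6c, Ms4a4a, Ms4a6b and Ms4a4c to Ms4a4b. The ranges of Ms4a6c and Ms4a4a overlapped over the mice, as did those of Ms4a4a and Ms4a6b, although within each library the order held in 4 of 4. In TAM-KO, Ms4a6c stood beside Ms4a7, with overlapping ranges, and was the higher in 2 of 3 libraries. Ms4a6b stood beside Ms4a4a, again with overlapping ranges, and was the higher in 3 of 4. All other neighbors in the order had ranges that did not overlap.

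Levels were also expressed as shares of the summed FPKM of the 6 members with a value in all 8 libraries, that is, without Ms4a7. The sum was 675, 495, 665 and 686 FPKM in TAM-WT libraries 1 to 4 and 766, 772, 752 and 724 FPKM in TAM-KO libraries 1 to 4, with no overlap. The share of Ms4a4c was 3.82, 1.98, 2.38 and 4.80% in TAM-WT and 6.51, 9.30, 8.55 and 6.67% in TAM-KO. That of Ms4a6d was 42.2, 45.6, 45.0 and 45.6% in TAM-WT and 39.5, 33.7, 35.4 and 40.2% in TAM-KO. Both shares separated the groups, in opposite directions, while the level of Ms4a6d itself did not. For the others the mean shares were 24.2 ± 1.32% and 27.5 ± 2.22% for Ms4a6c, 15.6 ± 1.56% and 12.7 ± 1.72% for Ms4a4a, 12.1 ± 1.03% and 13.6 ± 0.546% for Ms4a6b, and 0.286 ± 0.236% and 1.26 ± 0.611% for Ms4a4b (TAM-WT and TAM-KO, SD, n = 4 each). Shares add to a fixed sum, so they are not independent of each other.

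**Figure D2:**
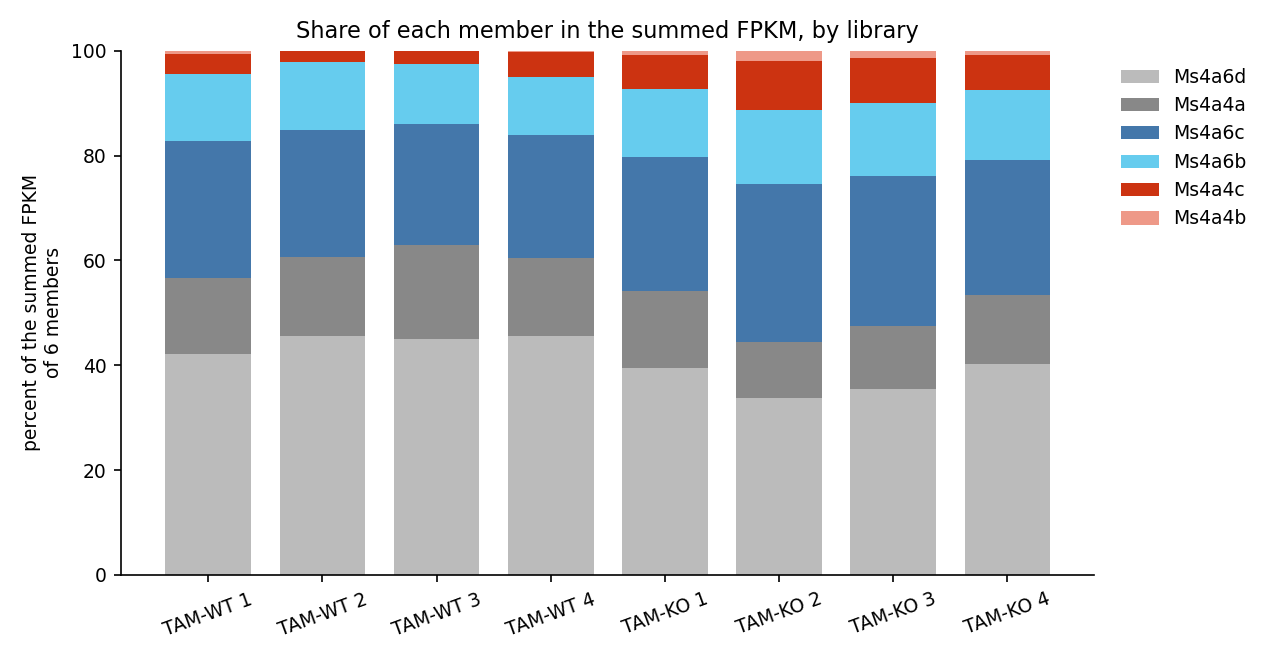
Percent of the summed FPKM of 6 members (without Ms4a7) that each gene holds, with 1 stacked bar per library from 0 to 100%. The share of Ms4a4c is at most 4.80% in the 4 TAM-WT bars and at least 6.51% in the 4 TAM-KO bars.

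The 7 genes are neighbors on chromosome 19 of the mouse genome build GRCm38.p6, where RefSeq places them between positions 11321039 and 11604804, a span of 283766 bases. From the low end, Ms4a7 lies at chr19:11321039-11336146 on the minus strand, Ms4a4a at chr19:11375488-11392915, Ms4a4c at chr19:11404717-11427246, Ms4a4b at chr19:11443558-11463549, Ms4a6c at chr19:11469353-11487182 and Ms4a6b at chr19:11518559-11530403 on the plus strand, and Ms4a6d at chr19:11586606-11604804 on the minus strand. Among the members, the 4 genes whose groups did not overlap, Ms4a4c, Ms4a4b, Ms4a6c and Ms4a6b, thus follow each other along the plus strand. The gaps between them are 16311, 5803 and 31376 bases. Ms4a4a, 11801 bases before Ms4a4c, and the flanking genes Ms4a7 and Ms4a6d, both on the other strand, had groups that overlapped.

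RefSeq lists 13 genes in this span, of which 9 are protein-coding, 3 are pseudogenes and 1 is a long noncoding RNA. Besides the members, the protein-coding ones are Gm8369 and Ms4a4d. Gm8369 lies on the plus strand in the largest gap between the 4 genes, between Ms4a6c and Ms4a6b. It was hardly expressed, at 0.283 ± 0.0954 FPKM in TAM-WT and 0.443 ± 0.138 FPKM in TAM-KO (SD, n = 4 each), and its groups overlapped. The log2 fold change of Gm8369, 0.50 (SE 0.31), did not pass in edgeR (adjusted p 0.307). Ms4a4d, at chr19:11536794-11558466 past Ms4a6b, had at most 4 reads in any library. Both are thus silent or nearly so in these cells.

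**Figure D3:**
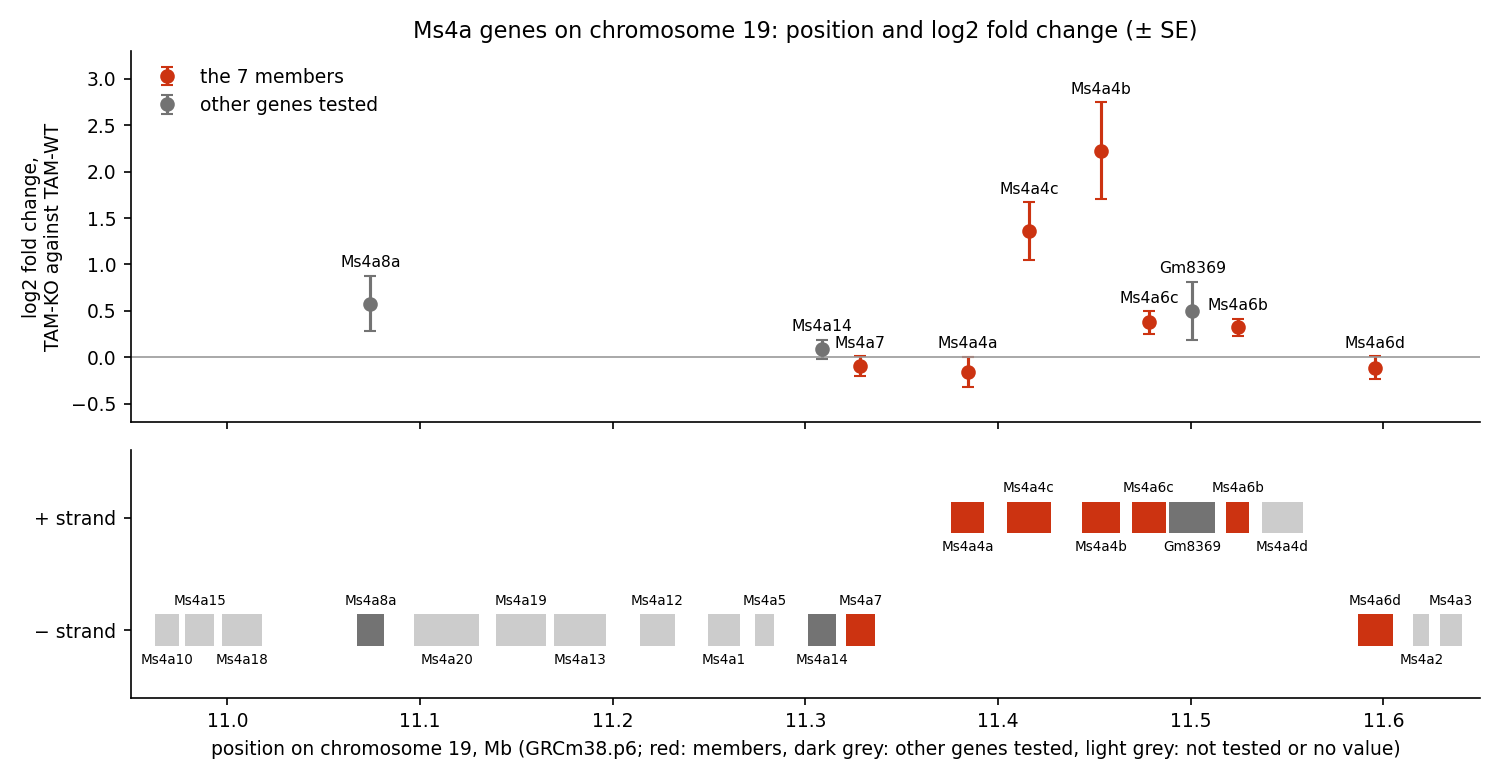
Upper panel, log2 fold change of TAM-KO against TAM-WT (± SE) of Ms4a genes and Gm8369 against position on chromosome 19 in megabases, in red for the 7 members and in grey for other genes tested; lower panel, the genes by strand, in light grey where not tested or without a value. Ms4a4c and Ms4a4b have the highest values, 1.36 and 2.23, while Ms4a8a is at 0.58, Gm8369 at 0.50, Ms4a6c at 0.38 and Ms4a6b at 0.33.

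Closely related genes can share reads, so the transcripts in GENCODE M21 were compared in stretches of 50 bases. Ms4a4a and Ms4a7 shared 0% of their stretches with any other gene. Ms4a4b shared 4.19% of its stretches with other genes, Ms4a4c 8.19%, Ms4a6b 5.89% and Ms4a6d 2.69%, most of them with another Ms4a gene. The overlap of Ms4a4c with Ms4a4b was 7.73% of the stretches of Ms4a4c. Ms4a6c differed, since 56.9% of its stretches were shared, 55.4% with BE692007, the long noncoding RNA that lies within it. The level of Ms4a6c therefore cannot be separated from BE692007 over that part. All 55 expected counts of the members were whole numbers as deposited.

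The promoters of the members were compared, because the 4 genes whose groups did not overlap are neighbors with related names. RefSeq promoter windows of 300 bases, from 250 bases before to 50 bases after a gene's start, matched 6 of the 7 members by symbol, all but Ms4a6d, with 7 windows because Ms4a7 has 2. The windows of Ms4a4b and Ms4a4c could be aligned over 282 bases, of which 228 were identical, and those of Ms4a6b and Ms4a6c over 220 bases, of which 189 were identical. That is 76.0 and 63.0% of the window. No other windows of different members had more than 20% of the window identical, the value of Ms4a6b and Ms4a7. The window of Ms4a4c surrounds a start inside the gene's span given by RefSeq.

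The windows of these 4 genes are printed to show the likeness of each couple, 5′ to 3′ on the plus strand of GRCm38.p6 as given by RefSeq. Capitals mark a match to GAAANNGAA, the core of the interferon-stimulated response element, or to TGANTCA, the AP-1 motif with any middle base. The windows lie at chr19:11443308-11443607 for Ms4a4b, chr19:11407411-11407710 for Ms4a4c, chr19:11518309-11518608 for Ms4a6b and chr19:11469118-11469417 for Ms4a6c.
Ms4a4b: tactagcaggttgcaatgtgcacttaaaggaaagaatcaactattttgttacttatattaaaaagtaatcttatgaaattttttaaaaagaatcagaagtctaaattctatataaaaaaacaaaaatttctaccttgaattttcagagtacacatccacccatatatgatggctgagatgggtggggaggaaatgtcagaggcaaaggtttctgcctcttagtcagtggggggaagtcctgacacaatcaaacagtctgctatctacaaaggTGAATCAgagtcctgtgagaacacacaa
Ms4a4c: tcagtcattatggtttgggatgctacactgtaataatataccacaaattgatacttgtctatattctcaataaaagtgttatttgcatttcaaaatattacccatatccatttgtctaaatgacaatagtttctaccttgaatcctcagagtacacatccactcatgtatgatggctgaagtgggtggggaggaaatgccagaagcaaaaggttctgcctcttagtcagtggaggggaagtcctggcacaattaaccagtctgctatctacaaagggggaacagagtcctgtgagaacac
Ms4a6b: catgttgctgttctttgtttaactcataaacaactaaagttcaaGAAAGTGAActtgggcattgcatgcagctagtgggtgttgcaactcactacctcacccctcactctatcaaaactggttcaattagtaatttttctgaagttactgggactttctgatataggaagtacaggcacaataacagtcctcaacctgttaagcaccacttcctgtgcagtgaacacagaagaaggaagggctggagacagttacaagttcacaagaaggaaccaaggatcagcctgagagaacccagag
Ms4a6c: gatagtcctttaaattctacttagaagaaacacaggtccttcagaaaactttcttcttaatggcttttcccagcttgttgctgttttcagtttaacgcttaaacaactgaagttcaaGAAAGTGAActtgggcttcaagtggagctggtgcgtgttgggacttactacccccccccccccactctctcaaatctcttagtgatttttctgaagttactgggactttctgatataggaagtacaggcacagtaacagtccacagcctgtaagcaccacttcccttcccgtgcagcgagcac

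Of 32851 promoter windows of all genes, 8.56% held GAAANNGAA and 7.81% held TGANTCA, counting both strands. Ms4a6b and Ms4a6c both held GAAAGTGAA, 206 and 133 bases before the start. Ms4a7 also held GAAANNGAA in both of its windows, as GAAAAGGAA 148 bases before the start of 1 and on the opposite strand 71 bases before the start of the other. TGANTCA was found in Ms4a4b, as TGAATCA 23 bases after the start, and in Ms4a7, as TGATTCA 81 bases before it. Neither motif was found in the windows of Ms4a4a and Ms4a4c. The PU.1 motif GAGGAAG, found in 13.6% of all windows, its longer form GAGGAAGT, which contains it and was found in 3.20%, the GAS motif TTCNNNGAA in 8.30%, the E-box CACGTG in 7.15% and the MAF motif TGCTGAC in 4.67% were absent from the windows of the 6 members. Such matches describe letters in a window and do not show that a protein binds there.

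Relatives of the 7 genes were read next, from a list of 14 other MS4A family genes. Of these, 3 had no value (Ms4a3, Ms4a5 and Ms4a13), and 7 had too few reads to test. Ms4a1, which encodes CD20 of B cells, had at most 5 reads in any library, and Ms4a2 of mast cells at most 1. Ms4a4d, Ms4a10, Ms4a12, Ms4a15 and Ms4a18 were as low, with at most 4 reads. Thus 4 relatives were tested, with a median log2 fold change of 0.58.

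Tmem176a and Tmem176b, which lie together on chromosome 6 and encode ion channels of intracellular membranes in dendritic cells and macrophages, rose in TAM-KO. Tmem176b had 51.8, 53.3, 35.7 and 35.3 FPKM in TAM-WT libraries 1 to 4 and 72.7, 77.2, 74.1 and 60.3 FPKM in TAM-KO libraries 1 to 4. Tmem176a had 20.1, 15.8, 12.2 and 13.6 FPKM in TAM-WT and 26.0, 25.8, 27.8 and 20.4 FPKM in TAM-KO. Neither gene's groups overlapped, though TAM-KO replicate 4 came close to TAM-WT replicate 1 for Tmem176a. The log2 fold changes were 0.57 (SE 0.12, adjusted p 0.0241 in edgeR) for Tmem176b and 0.60 (SE 0.13, adjusted p 0.0295) for Tmem176a, higher in 4 of 4 TAM-KO libraries. Tmem176b passed in 5 of 8 edgeR fits that left out 1 library, with adjusted p-values of 0.0895 and 0.0841 without TAM-KO replicates 2 and 3 in turn, and of 0.0723 without TAM-WT replicate 3. Tmem176a passed in 3 of 8, with adjusted p-values of 0.0607, 0.0975 and 0.0946 without TAM-KO replicates 1, 2 and 3, and 0.0863 and 0.0684 without TAM-WT replicates 3 and 4.

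The other tested relatives lie on chromosome 19, as the members do, and did not pass in edgeR. Ms4a14, next to Ms4a7, had 14.5 ± 2.14 FPKM in TAM-WT and 16.5 ± 0.569 FPKM in TAM-KO (SD, n = 4 each), which edgeR put at a log2 fold change of 0.09 (SE 0.10, adjusted p 0.614). Ms4a8a had 3.47 ± 1.23 FPKM and 5.62 ± 1.75 FPKM, or 0.58 on the log2 scale in edgeR (SE 0.30, adjusted p 0.223). Its highest library, TAM-KO replicate 2, held 8.23 FPKM.

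Partners of MS4A proteins, from a list of 14 genes, were all tested. Of these, 1 passed as higher and 2 as lower in edgeR, and 11 did not pass, with a median log2 fold change of -0.18. Counted at an unadjusted p of 0.05, 1 was higher and 6 were lower, while DESeq2 called 1 higher and 4 lower, and limma voom 1 higher and 6 lower. Tnfrsf18 encodes GITR, the partner of the Ms4a4b protein. It had 1.85, 0.30, 0.46 and 0.53 FPKM in TAM-WT libraries 1 to 4 and 2.25, 4.43, 3.39 and 2.28 FPKM in TAM-KO libraries 1 to 4. TAM-WT replicate 1 was the highest wild-type library, as it was for Ms4a4b. The log2 fold change was 1.87 (SE 0.47), with an adjusted p of 0.0404 in edgeR, from 4 to 24 reads in TAM-WT and from 30 to 56 in TAM-KO. With 1 library left out, the log2 fold change of Tnfrsf18 ran from 1.59 to 2.69, and it passed in 3 of 8 fits. The adjusted p of edgeR missed the threshold at 0.0592, 0.13 and 0.112 without TAM-KO replicates 1, 2 and 3. It was 0.114 and 0.0912 without TAM-WT replicates 3 and 4. With the replicate block it was 0.0665.

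Vsig4, a complement receptor of resident macrophages and the partner of the Ms4a6d protein, went the other way at a low level. It had 1.41, 1.73, 1.46 and 0.89 FPKM in TAM-WT libraries 1 to 4 and 0.15, 0.00, 0.15 and 0.30 FPKM in TAM-KO libraries 1 to 4. That is 18 to 35 reads against 0 to 6, with no overlap. Vsig4 had a log2 fold change of -3.23 (SE 0.49) with an adjusted p of 0.0124 in edgeR, lower in 4 of 4 TAM-KO libraries, and it passed in 7 of 8 fits that left out 1 library, the exception being 0.0532 without TAM-KO replicate 3. Nlrp3 encodes the inflammasome sensor and Il1b the cytokine that it matures. Both had a log2 fold change of -1.08, and neither passed in edgeR (adjusted p 0.0754 and 0.0829). Over 10 alternatives Il1b ran from 0.0133 to 0.111 and passed in 3, namely DESeq2 (0.0133), limma voom (0.043) and edgeR with the replicate block (0.0413), and it passed without TAM-WT replicates 1 and 2 in turn (0.0343 and 0.0486). Nlrp3 ran from 0.0551 to 0.162 and passed in 0 of the 10, but did without TAM-WT replicate 1 (0.0148).

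Trem2, a lipid receptor whose shed form in human cerebrospinal fluid varies with MS4A4A alleles, had 308, 311, 325 and 219.5 FPKM in TAM-WT libraries 1 to 4 and 248, 161, 153 and 175 FPKM in TAM-KO libraries 1 to 4. TAM-WT replicate 4 was below TAM-KO replicate 1, so the groups overlapped. The log2 fold change was -0.76 (SE 0.17), with an adjusted p of 0.0308 in edgeR. It missed the threshold without TAM-KO replicates 2, 3 and 4, at 0.106, 0.0975 and 0.0517, and without TAM-WT replicate 3, at 0.0904. Its adaptor Tyrobp did not pass (-0.18, adjusted p 0.187 in edgeR) except in limma voom (0.0263) and without TAM-WT replicate 2 (0.0246), nor did Adam10 and Adam17, which encode proteases that shed TREM2, at 0.09 each on 7 libraries (adjusted p 0.477 and 0.563).

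Clec7a, the gene of dectin-1, was 82.9 ± 21.8 FPKM in TAM-WT and 54.4 ± 12.4 FPKM in TAM-KO (SD, n = 4 each). Its log2 fold change of -0.73 (SE 0.22) had an adjusted p of 0.0656 in edgeR. Over 10 alternatives it ran from 0.0117 to 0.117 and passed in 3, which were DESeq2 (0.0145), limma voom (0.0117) and the replicate block (0.0338). With 1 library left out, it passed in 1 of 8 fits, at 0.00697 without TAM-WT replicate 2. Downstream of dectin-1, edgeR gave log2 fold changes of -0.19 for Syk (adjusted p 0.364) and -0.25 for Card9 (adjusted p 0.079), which passed in limma voom (0.0196) and without TAM-WT replicate 2 (0.0412). The MHC class II genes H2-Aa and H2-Ab1 and the invariant chain Cd74 did not pass, at log2 fold changes of 0.64, 0.61 and 0.63 in edgeR (adjusted p 0.275, 0.291 and 0.238), and their groups overlapped.

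Ms4a4b is a gene of T cells and NK cells, so their markers were set beside it. Of 10 T cell markers tested, 1 passed as higher (Cd2, log2 fold change 2.24, adjusted p 0.0241 in edgeR) and 0 as lower, with a median of 2.43. At an unadjusted p of 0.05, 8 were higher and 1 was lower, and DESeq2 called 4 higher and 1 lower. Il7r was the most abundant at 29.7 FPKM, and it was lower in TAM-KO on average. The log2 fold changes of 8 of the 10 were above 0 in edgeR, all but those of Il7r and Cd4. The summed FPKM of the 9 genes with 8 values, all but Cd4, was 45.8, 24.1, 47.6 and 55.5 in TAM-WT and 53.5, 72.4, 65.4 and 46.9 in TAM-KO. The groups overlapped, and the order of libraries was not that of Ms4a4b. Without Il7r, the sum of the other 8 genes was 16.1, 1.08, 1.69 and 2.25 in TAM-WT libraries 1 to 4. In TAM-KO libraries 1 to 4 it was 32.0, 55.2, 45.1 and 19.9. This sum did not overlap between the groups, and its order of libraries was that of Ms4a4b. The subset was not planned, and it leaves out Il7r and Cd4, the genes of the list with log2 fold changes not above 0. The defining marker Cd3g had 59, 2, 3 and 2 reads in TAM-WT and 112, 179, 175 and 62 in TAM-KO, with no overlap.

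NK cell markers were read in the same way. Of 8 genes, 5 could be tested, of which 2 passed as higher in edgeR (Nkg7, adjusted p 0.0323, and Eomes, 0.0452) and 0 as lower, with a median log2 fold change of 2.74. All 5 were higher at an unadjusted p of 0.05, where 0 were lower, and DESeq2 called 2 higher and 0 lower. Nkg7 was the most abundant at 9.56 FPKM. The defining marker Ncr1 had at most 4 reads in any library and 0 in 5 of 8. The summed FPKM of the 7 genes with 8 values was 18.2, 0.80, 1.51 and 2.32 in TAM-WT libraries 1 to 4 and 28.1, 68.0, 55.3 and 20.6 in TAM-KO libraries 1 to 4, in the same order of libraries as Ms4a4b. The sort on F4/80 should leave out T cells and NK cells, and the part of these cells in the result of Ms4a4b was not tested.

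**Figure D4:**
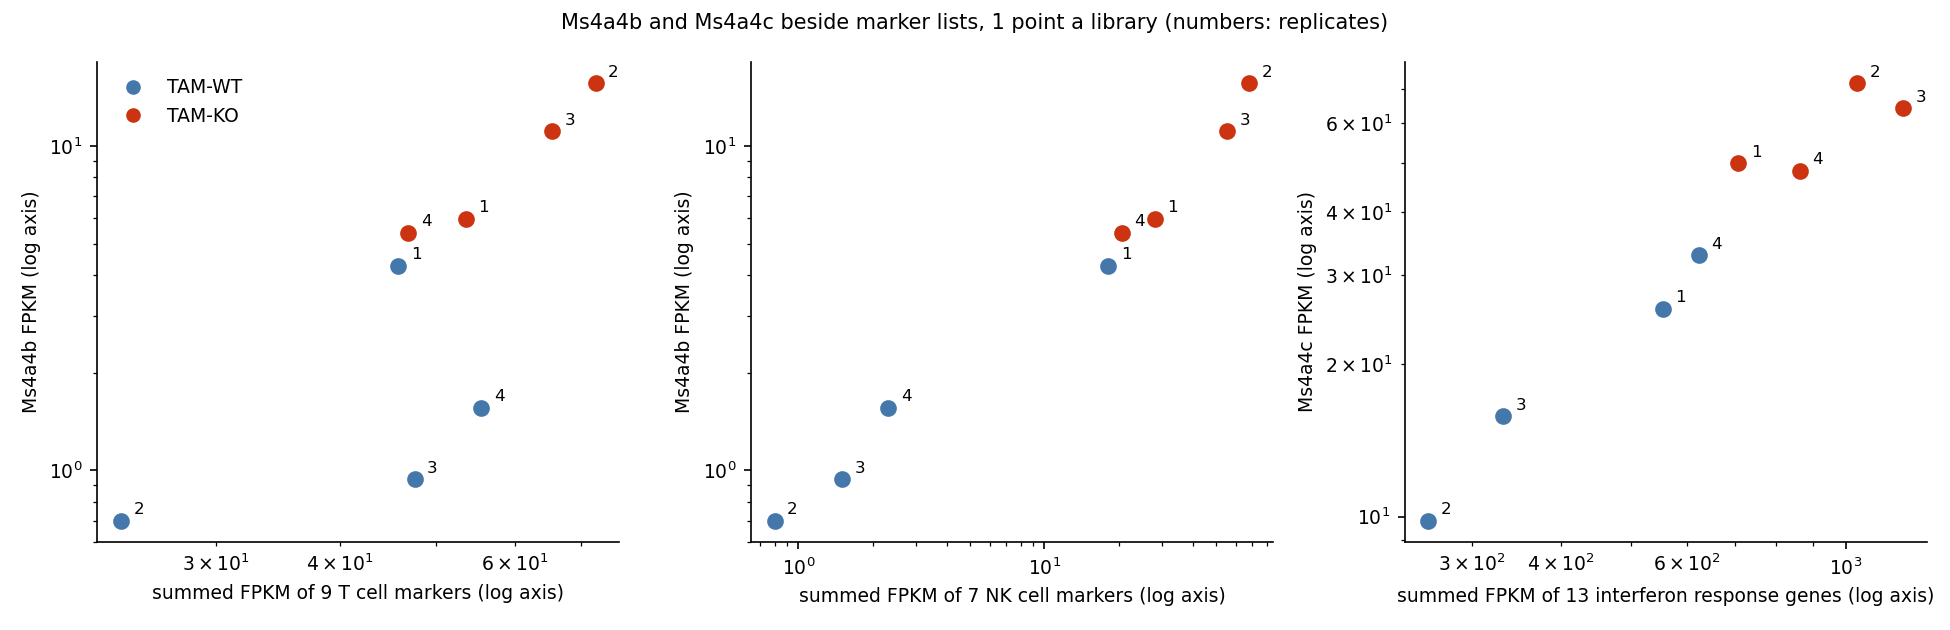
Ms4a4b FPKM against the summed FPKM of 9 T cell markers (left) and of 7 NK cell markers (middle), and Ms4a4c FPKM against that of 13 interferon response genes (right), on log axes, with 1 point per library, blue for TAM-WT, red for TAM-KO and the replicate number beside it. The groups overlap along the horizontal axis on the left. Without Il7r, a subset that was not planned, the T cell sum (not drawn) does not overlap between the groups and has the library order of Ms4a4b. In the middle, the order of the 8 libraries is the same on both axes. On the right, the TAM-WT libraries lie below the TAM-KO libraries on both axes.

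Interferon response genes were set beside Ms4a4c. Of 13 such genes tested (Mx1 had no value), 5 passed as higher in edgeR, among them Cxcl10 (adjusted p 0.0324), Gbp3 (0.0429), Stat2 (0.0442) and Irf1 (0.0488). None passed as lower in edgeR, where 10 were higher and 0 lower at an unadjusted p of 0.05, and DESeq2 called 9 higher and 0 lower. The median log2 fold change was 0.98, with all 13 above 0. The most abundant was Cxcl10 at 162 FPKM. Their summed FPKM was 555, 260.5, 331 and 623 in TAM-WT libraries 1 to 4 and 708, 1039, 1204 and 862 in TAM-KO libraries 1 to 4, with no overlap. Within TAM-WT the order of libraries by this sum was that of Ms4a4c. Within TAM-KO it was not, since the sum was highest in replicate 3 and lowest in replicate 1, and Ms4a4c highest in replicate 2 and lowest in replicate 4. The part of an interferon response in the result of Ms4a4c was not tested.

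Lists of the macrophages' own state were read in the same way. For the macrophage list the median log2 fold change was -0.14, and 0 of 10 genes passed in either direction in edgeR, while 1 was higher and 2 were lower at an unadjusted p of 0.05 and DESeq2 called 1 higher and 2 lower. Of 10 monocyte genes, 3 passed as higher (among them Plac8, adjusted p 0.0123 in edgeR, and Ly6c2, 0.044) and 2 as lower (F13a1, 0.0139, and Fn1, 0.0338), with a median of 0.39. Of 10 genes induced by IL-4, 3 passed as lower (Mrc1, adjusted p 0.0219 in edgeR, Mgl2, 0.0253, and Retnla, 0.0452) and 0 as higher, with a median of -1.01. At an unadjusted p of 0.05, 7 of them were lower and 1 was higher, and DESeq2 called 5 lower and 0 higher. Of 8 genes induced by glucocorticoids, 1 passed as lower (Cd163, adjusted p 0.00933 in edgeR) and 0 as higher, with a median of -0.86. At an unadjusted p of 0.05, 5 of them were lower and 0 higher, and DESeq2 called 5 lower and 0 higher.

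These calls differed in how far they rested on 1 library. Plac8 and Cd163 passed in 8 of 8 edgeR fits that left out 1 library, and F13a1 in 7 of 8, the exception being 0.0586 without TAM-KO replicate 3. Mrc1, Mgl2 and Cxcl10 passed in 5 of 8, Cd2 and Fn1 in 4, Nkg7, Gbp3 and Stat2 in 3, Ly6c2, Retnla and Eomes in 2 and Irf1 in 1. The highest adjusted p among these fits was 0.0885 for Mrc1, 0.0863 for Mgl2 and 0.133 for Retnla, each without TAM-KO replicate 3, and 0.16 for Irf1 without TAM-KO replicate 3. It was 0.0972 for Cd2, 0.111 for Nkg7, 0.126 for Stat2, 0.131 for Fn1, 0.133 for Gbp3, 0.145 for Ly6c2 and 0.16 for Eomes, each without TAM-KO replicate 2, and 0.0952 for Cxcl10 without TAM-WT replicate 3.

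Markers of other cells of a tumor were summed to show what else the libraries held. The 7 melanoma genes were abundant, with Pmel at 1033 FPKM, and their sum was 2639.7, 4382, 2010.1 and 1958 FPKM in TAM-WT libraries 1 to 4 and 4492, 5057, 4742 and 3817 FPKM in TAM-KO libraries 1 to 4. The groups overlapped, since TAM-WT replicate 2 exceeded TAM-KO replicate 4. In edgeR 1 of the 7 passed as higher (Sox10, adjusted p 0.0295) and 0 as lower, with a median of 0.59, while 6 were higher and 0 lower at an unadjusted p of 0.05 and DESeq2 called 5 higher and 0 lower. Sox10 passed in 3 of 8 edgeR fits that left out 1 library, with a highest adjusted p of 0.0975 without TAM-KO replicate 2. TAM-WT replicate 2, the wild-type library with most melanoma RNA by this sum, had the lowest FPKM of all libraries for each of the 7 members. The part of tumor RNA in the members' levels was not tested.

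Neutrophil genes were led by Csf3r at 24.6 FPKM and summed to 32.7, 21.8, 29.1 and 29.2 FPKM in TAM-WT libraries 1 to 4 and 198, 49.7, 49.1 and 56.3 FPKM in TAM-KO libraries 1 to 4, so that TAM-KO replicate 1 stood alone. Of 5 tested, 1 passed as higher (S100a8, adjusted p 0.0481 in edgeR) and 0 as lower, with a median of 0.69, 3 higher and 0 lower at an unadjusted p of 0.05, and 3 higher and 0 lower in DESeq2. S100a8 passed in 1 of 8 fits that left out 1 library, with a highest adjusted p of 0.12 without TAM-WT replicate 3. Of 8 dendritic cell genes, led by Ccr7 at 5.46 FPKM, 1 passed as higher (Xcr1, adjusted p 0.0435 in edgeR, in 3 of 8 such fits, with a highest value of 0.137 without TAM-KO replicate 2) and 0 as lower, with a median of 0.02. At an unadjusted p of 0.05, 1 was higher and 1 was lower, and DESeq2 called 1 higher and 1 lower.

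In 4 further lists 0 genes passed in edgeR. The medians were -0.08 for 4 B cell genes, 0.15 for 2 mast cell genes, -0.05 for 5 fibroblast genes and 0.44 for 4 endothelial cell genes. At an unadjusted p of 0.05, 1 B cell gene, 1 fibroblast gene and 1 endothelial cell gene were higher, 0 mast cell genes differed and 0 genes of these lists were lower. DESeq2 called 1 endothelial cell gene higher and 0 others. Their most abundant genes were Cd22 at 11.3 FPKM, Kit at 2.40 FPKM, Col1a1 at 1.21 FPKM and Pecam1 at 2.91 FPKM.

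Finally, for each member the genes were sought whose log2 normalized counts followed it most closely over the libraries, among 10802 genes. The measure was Pearson's r over the 7 or 8 libraries that held both genes. The libraries come from 2 genotypes, so that r includes the difference between them, and with so many genes compared a high r over so few libraries arises easily. For Ms4a4c the closest were Ly6c2 (r 0.989, n = 7), Mndal (0.988, n = 7) and Trim21 (0.986, n = 8). For Ms4a4b they were Psmb9 (0.993), H2-T22 (0.991) and Il12rb1 (0.991), each with n = 7. Ms4a6c was followed by Csf3r (0.995, n = 7), Bin2 (0.994, n = 8) and Zfp971 (0.989, n = 8), and Ms4a6b by Grk5 (0.993, n = 7), Cabin1 (0.991, n = 7) and Cyp4f18 (0.979, n = 8). The genes found for Ms4a4c, Ms4a4b, Ms4a6c and Ms4a6b all had log2 fold changes above 0, from 0.20 for Cabin1 to 2.06 for Il12rb1.

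The members whose groups overlapped were followed by other genes. For Ms4a4a these were Vcan (r 0.989), Pfkfb3 (0.983) and Csf2rb2 (0.97), each over 7 libraries. For Ms4a6d they were Csf2rb2 (0.993, n = 7), Csf2rb (0.986, n = 7) and Piwil2 (0.983, n = 8), so that Csf2rb2, a receptor chain for IL-3, appeared for both. Ms4a7 was followed by Mta2 (0.995), Sfxn3 (0.986) and Dop1b (0.983), each over 7 libraries. The log2 fold changes of these 8 genes ran from -0.43 for Pfkfb3 to -0.06 for Mta2, with adjusted p-values from 0.257 to 0.602 in edgeR.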

How the data were processed

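RNA of 8 libraries, 4 of TAM-WT and 4 of TAM-KO, was grouped by the genotype in the deposited labels. The authors deposited expected counts, the reads that RSEM assigns to each gene, without normalization. The authors also deposited FPKM, scaled to transcript length and mapped reads. The submitters' notes name HISAT2 2.0.4, Bowtie2 2.2.5, RSEM 1.2.12 and the build GRCm38.p6. TPM was not used, nor were the log2 ratios, p-values and q-values of the authors' comparison.

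The table of TAM-KO replicate 1 lacks 4214 of the 16786 genes. Its 629 values for genes without a value elsewhere were not used, nor were 2 damaged lines. For 1188 of the missing genes the table of the authors' comparison gave the counts and FPKM of this library. They enter FPKM means and sums but not the tests. Where both tables held this library, 2808 genes were compared and 0 differed.

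In edgeR 4.0.16 under R 4.3.3, rounded expected counts were scaled by TMM, filtered by filterByExpr and tested with glmQLFit and glmQLFTest. Genes with 8 values were fitted on 8 libraries (9396 tested) and the others on 7 (3016 tested), with Benjamini-Hochberg adjustment over both together. Of the members, 6 were fitted on 8 libraries. The test was checked on simulated counts with the same spread for every gene. That check does not show how the test performs at the spread of these libraries. Standard errors include the differences among mice. Reads on genes were 16225362 to 17280267 per complete library.

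Alternatives were DESeq2 size factors or total reads in edgeR, DESeq2 1.42.0, limma 3.58.1 (voom with sample quality weights, and trend on log2 FPKM with 0.1 or 1 added), no filter, at least 10 counts in every library, a replicate block, 7 libraries for every gene, each library left out, an adjusted p of 0.01 and a fold of 2.

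The members and lists were chosen with earlier results of these data known. The genes named are the 7 members, 14 other family genes, 14 partner genes, Colec11, the protein-coding genes between the members, the genes closest to each member by r (3 each, mean of at least 5 CPM, counts scaled to library size), and, in each list, genes among the 2 most abundant and those that passed. Ncr1 lies outside this rule and was chosen later. The lists were macrophage, monocyte, neutrophil, mast cell, dendritic cell, B cell, T cell, NK cell, fibroblast, melanoma cell, endothelial cell, IL-4 induced, glucocorticoid induced and interferon response. Positions and promoters are from RefSeq, transcripts from GENCODE M21. Promoters were aligned with biopython 1.88.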

Additional observations from a re-analysis of the deposited data

Results flagged for a closer look

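In each group of 4 libraries, the FPKM of every gene named in the text was checked for 1 library far from the other 3, by the gap to the nearest library as a share of the group's range (Dixon's test). Of 163 groups, 11 had such a library, beside the 8.15 that chance gives at about 1 in 20.

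In TAM-WT replicate 1, 6 genes stood above the other wild-type libraries. Cd3g had 4.58 FPKM with the nearest at 0.23, Gzmb 6.55 with the nearest at 0.47, Nkg7 5.82 with the nearest at 0.21, Ncr1 0.10 with the nearest at 0.00, and Tnfrsf18 1.85 with the nearest at 0.53. These are genes of T cells and NK cells, and Ms4a4b was also highest in this library among wild-type mice without meeting the same limit. Ncr1 had 2 reads in this library and 0 in TAM-WT libraries 2 to 4, so any read there would meet the limit. The last of the 6, Cabin1, had 13.1 FPKM with the nearest at 11.3.

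In TAM-KO replicate 1, S100a8 had 73.5 FPKM with the nearest at 15.8, and Hdc had 2.99 FPKM with the nearest at 0.85. In TAM-KO replicate 2, Ms4a8a had 8.23 FPKM with the nearest at 4.92. In TAM-WT replicate 3, Fn1 had 361 FPKM with the nearest at 191. In TAM-WT replicate 4, Trem2 had 219.5 FPKM, below the nearest at 308. No value of the 7 members met this limit.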

How the results depend on the processing

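Over the 7 members, 114 of 119 log2 fold changes in 17 alternative fits kept their direction, and over all 25 genes followed 417 of 423 did. The fit on 7 libraries for every gene is the one without TAM-KO replicate 1 and was counted once here. The exceptions are small values. Ms4a6d turned to 0.0059 and 0.0058 in limma on log2(FPKM + 0.1) and log2(FPKM + 1). Ms4a7 turned to 0.0133 in both and to 0.0189 in edgeR scaled to total reads. Ms4a14 turned to -0.009 without TAM-WT replicate 2, and was at most 0.1614 with another library left out. The cause was not tested.

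The number of members that passed was 2. It was 4 with total reads, DESeq2, limma voom and both limma fits on log2 FPKM, and 1 on 7 libraries for every gene. It was 0 at an adjusted p of 0.01, and ranged from 0 to 4 when 1 library was left out. It stayed at 2 with DESeq2 size factors, no filter, at least 10 counts and a fold of 2. Over all 12412 genes tested, 568 passed as higher in edgeR with TMM. With total reads the number was 870, in DESeq2 1081 and in limma voom 1830. In limma on log2(FPKM + 0.1) and log2(FPKM + 1) it was 878 and 916.

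The number of all genes that passed was 1218 of 12412 tested. It was 2253 in DESeq2, 3625 in limma voom and 682 on 7 libraries. A stricter threshold left fewer by construction, 36 at an adjusted p of 0.01 and 314 with a fold of 2. With 1 library left out it ranged from 77 to 2755, lowest without TAM-KO replicate 2 or 3 and highest without TAM-WT replicate 2. Otherwise the cause was not tested.

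The adjusted p of Ms4a4c was 0.0062 to 0.0549 over 10 alternatives, 9 on all libraries and 1 on 7 for every gene, and passed in 8. That of Ms4a4b was 0.00672 to 0.0619 and passed in 9. Those of Ms4a6b (0.0152 to 0.0815) and Ms4a6c (0.023 to 0.117) each passed in 5.

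With a replicate block in edgeR, 1080 genes and 0 of the members passed. The adjusted p was then 0.0508 for Ms4a4c and 0.0619 for Ms4a4b. Libraries of the same number in the 2 groups had r from -0.35 to 0.272 over their deviations from the group means. With only 4 such couples, these values cannot decide whether the numbers pair the mice, and the labels do not say.

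Depth limits Ms4a4b, with 12 to 29 reads in 3 wild-type libraries, and leaves Ms4a4d, Ms4a1 and Ms4a2 below what can be tested. Ms4a7 rests on 3 knockout libraries. With 4 mice per group, leaving out 1 mouse changed the calls of Ms4a4b and Ms4a4c, and a change that missed the threshold is not shown to be absent. The sorted cells were measured in bulk, so levels per cell are unknown, and tumor, T cell and NK cell transcripts were present in the libraries. The shared sequence of Ms4a6c and BE692007 limits what the level of Ms4a6c means.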
